A study of Mus musculus with 18 samples.

Results

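Proximal T-cell receptor signalling was examined through the chromatin of 6 genes, Lck, Zap70, Lat, Lcp2, Grap2 and Rasgrp1, in murine peripheral T-cell lymphomas and in normal lymphocytes. A peak of the larger deposited table belonged to the set when its annotated symbol, or 1 of its symbols, was one of these genes. That rule used no measured value. It gave 52 of 61224 peaks, each 500 bp long, of which 11 were assigned to Lck, 7 to Zap70, 1 to Lat, 8 to Lcp2, 19 to Grap2 and 6 to Rasgrp1. By their deposited class, 12 were promoter, 33 intronic, 3 exonic and 4 flanking peaks. The gene of RefSeq held the centre of 45 of the 52, and 8 carried the symbol of a second gene too. The filter on low counts removed none of them.

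Accessibility was measured by ATAC-seq, in which the Tn5 transposase inserts adapters into open chromatin. The lymphomas (mPTCL, 9 libraries) developed in CD3KO C57BL/6 recipients that had been given syngeneic T cells lacking p53 (p53KO), and the cells were sorted from the recipients' liver by markers that the labels do not name. The 3 normal groups were wild type (WT) and of 3 libraries each: CD3+ Thy1+ T cells from spleen, CD3+ liver cells that bound a CD1d tetramer with alpha Gal Cer (NKT cells, whose titles nevertheless carry "Sp"), and CD27- CD11b+ NK cells from spleen. Genotype and gate change together with disease in every lymphoma comparison, and tissue does so against T and NK cells, so they cannot be told apart. The labels do not say whether the 3 libraries of a normal group came from separate animals, so the spread behind a p-value may be technical. In such bulk libraries, fewer cells of a type and less accessibility per cell cannot be told apart either.

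The 6 proteins form a relay. When the receptor of a T cell binds its ligand, the kinase Lck phosphorylates the CD3 and zeta chains, Zap70 docks there and phosphorylates the membrane adaptor LAT, and LAT assembles a complex in which Grap2 (GADS) brings in the scaffold SLP-76, the product of Lcp2. Diacylglycerol made by phospholipase C at that complex recruits RasGRP1, which activates Ras. NK cells use ZAP-70, LAT and SLP-76 behind their activating receptors as well, which makes them a normal group in which part of the relay works without a T-cell receptor.

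The promoters of 4 genes are printed because the peaks over them passed the test as lower in lymphomas than in NKT cells. Lck has 2 RefSeq starts that lie under a peak, an upstream one and a downstream one. This gene is known to have a distal and a proximal promoter. Each sequence is the 250 bases before a RefSeq start (build GRCm38.p6), on the gene's strand, and capitals mark the ETS letters GGAAGT and the RUNX letters TGTGGT on either strand.
Lck, upstream start, chr4:129573642-129573891, minus strand: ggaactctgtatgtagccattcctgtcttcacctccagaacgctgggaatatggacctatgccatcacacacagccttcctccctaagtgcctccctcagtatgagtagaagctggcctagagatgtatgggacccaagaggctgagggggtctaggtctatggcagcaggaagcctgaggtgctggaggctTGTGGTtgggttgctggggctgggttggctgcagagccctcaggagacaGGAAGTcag
Lck, downstream start, chr4:129558373-129558622, minus strand: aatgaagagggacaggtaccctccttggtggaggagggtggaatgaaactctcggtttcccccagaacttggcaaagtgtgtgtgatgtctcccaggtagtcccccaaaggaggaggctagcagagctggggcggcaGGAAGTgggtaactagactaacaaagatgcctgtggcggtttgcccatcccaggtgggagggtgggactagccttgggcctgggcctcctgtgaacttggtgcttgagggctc
Zap70, chr1:36761548-36761797, plus strand: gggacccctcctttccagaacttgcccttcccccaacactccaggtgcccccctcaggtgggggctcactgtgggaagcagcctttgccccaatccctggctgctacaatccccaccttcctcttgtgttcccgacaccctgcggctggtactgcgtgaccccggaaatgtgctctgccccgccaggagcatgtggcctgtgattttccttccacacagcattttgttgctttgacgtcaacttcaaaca
Lat, chr7:126369569-126369818, minus strand: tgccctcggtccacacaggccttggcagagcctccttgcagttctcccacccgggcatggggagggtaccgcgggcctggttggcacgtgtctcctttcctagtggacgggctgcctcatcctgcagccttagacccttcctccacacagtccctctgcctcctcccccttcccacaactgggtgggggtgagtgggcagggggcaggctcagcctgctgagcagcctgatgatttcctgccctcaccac
Rasgrp1, chr2:117342878-117343127, minus strand: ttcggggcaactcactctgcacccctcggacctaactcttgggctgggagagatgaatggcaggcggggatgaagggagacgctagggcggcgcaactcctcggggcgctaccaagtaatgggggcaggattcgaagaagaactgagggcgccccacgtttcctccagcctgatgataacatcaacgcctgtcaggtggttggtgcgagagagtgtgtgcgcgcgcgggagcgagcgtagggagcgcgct
The upstream Lck window held both motifs and the downstream one held the ETS letters, while the printed windows of Zap70, Lat and Rasgrp1 held neither. Zap70 has 2 further RefSeq starts whose windows lay outside its peaks and are not shown; the one before 36764515 held both motifs and the other neither. Of all 32851 RefSeq windows of that length, 19.7% held the ETS letters and 14.05% the RUNX letters. The E-box letters CAGNTG matched 2 times in Zap70 and 1 time each in Lat, Rasgrp1 and the downstream Lck window, against 44.8% of all windows with a match. A match is a description of the sequence only. The windows held for Lcp2 and Grap2 lay outside every peak of these genes, so neither is shown.

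Several features of the whole series bear on these genes. Each lymphoma library held 670358 to 4844441 counts in peaks. The totals were 979441 to 2358023 for T cells, 1433904 to 9097014 for NKT cells and 417107 to 596601 for NK cells. Values below are CPM, the counts scaled to library size with TMM factors. Each fold change is on the log2 scale and stands beside its standard error. A difference was called at an edgeR adjusted p below 0.05 over all peaks or genes. Against NKT cells the fold change of all peaks followed their level: from the lowest to the highest of 10 equal classes of mean level, its median ran from 2.50 to -0.75, and against T cells from 1.31 to -0.51. The median over all peaks against NKT cells was 0.27, and 0.74 with RLE scaling, under which 79.2% of all calls were higher in lymphomas in place of 54.5%. Compared with T cells it was 0.26 and 0.51, with 42.0% and 63.5% of calls higher. Chromosomes differed as well. Chromosome 15, which carries Grap2, took 7.96% ± 1.36 (SD, n = 9) of lymphoma counts and 4.84%, 4.72% and 4.82% of those of T, NKT and NK cells, and chromosome 11, which carries Lcp2, took 11.2% ± 1.27 against 8.13%, 8.27% and 8.07%. Chromosomes 1, 2 and 7, of Zap70, Rasgrp1 and Lat, took less in lymphomas than in any normal group on average. Chromosome 4, of Lck, took 6.90% ± 1.44 (SD, n = 9) of lymphoma counts, against means of 6.40% to 6.66% in the normal groups. Its share ran from 5.30% to 9.69% over the 9 lymphomas. A fit scaled within each chromosome was run beside the fit over the whole table.

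Against NKT cells, 16 of the 52 peaks were lower and 8 were higher in the lymphomas, and 28 did not pass the test. Over all peaks 19.4% were lower and 23.2% higher. The median fold change of the 52 was -0.55. The lower calls took in 8 of 12 promoter peaks and 7 of 33 intronic ones, and the higher calls 0 promoter and 6 intronic peaks. The shares over all promoter and all intronic peaks were not counted, so this split cannot be set apart from that of all such peaks. Except for the Lck one at 16903 bp, the lower promoter peaks were in level classes 9 and 10. There 45.1% and 62.5% of all peaks were lower. They also divided by gene: 6 of the lower calls were in Lck and 4 in Rasgrp1, whereas 7 of the 8 higher calls were in Grap2. With RLE scaling the split was 13 higher and 8 lower, and with scaling within chromosomes it was 2 higher and 19 lower. The level of a peak moved with its call, as over the whole table: all 9 peaks in the second-highest level class were lower, where 45.1% of all peaks were, and no peak in the lowest 5 classes was lower. Set against the median of all peaks of its own level class, every peak of Lck, Zap70, Lat and Rasgrp1 lay below it, as did 5 of 8 in Lcp2 and 7 of 19 in Grap2.

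Against T cells, few peaks passed the test, with 3 higher and 3 lower of 52 and a median of -0.04. Over all peaks 8.27% were higher and 11.4% lower. The higher peaks were in Grap2 and Lcp2 and the lower ones in Lck and Rasgrp1. Against NK cells, 10 of 52 were higher and 1 was lower, beside 6.03% higher and 3.76% lower over all peaks, and the median was 0.95 where that of all peaks was 0.30. Of those 10, 7 were in Grap2. Without NK replicate 3 the calls against NK cells dropped to 7, and without T replicate 3 those against T cells dropped to 3. The NK libraries were the shallowest, and many of these peaks had few or no counts there.

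**Figure D1:**
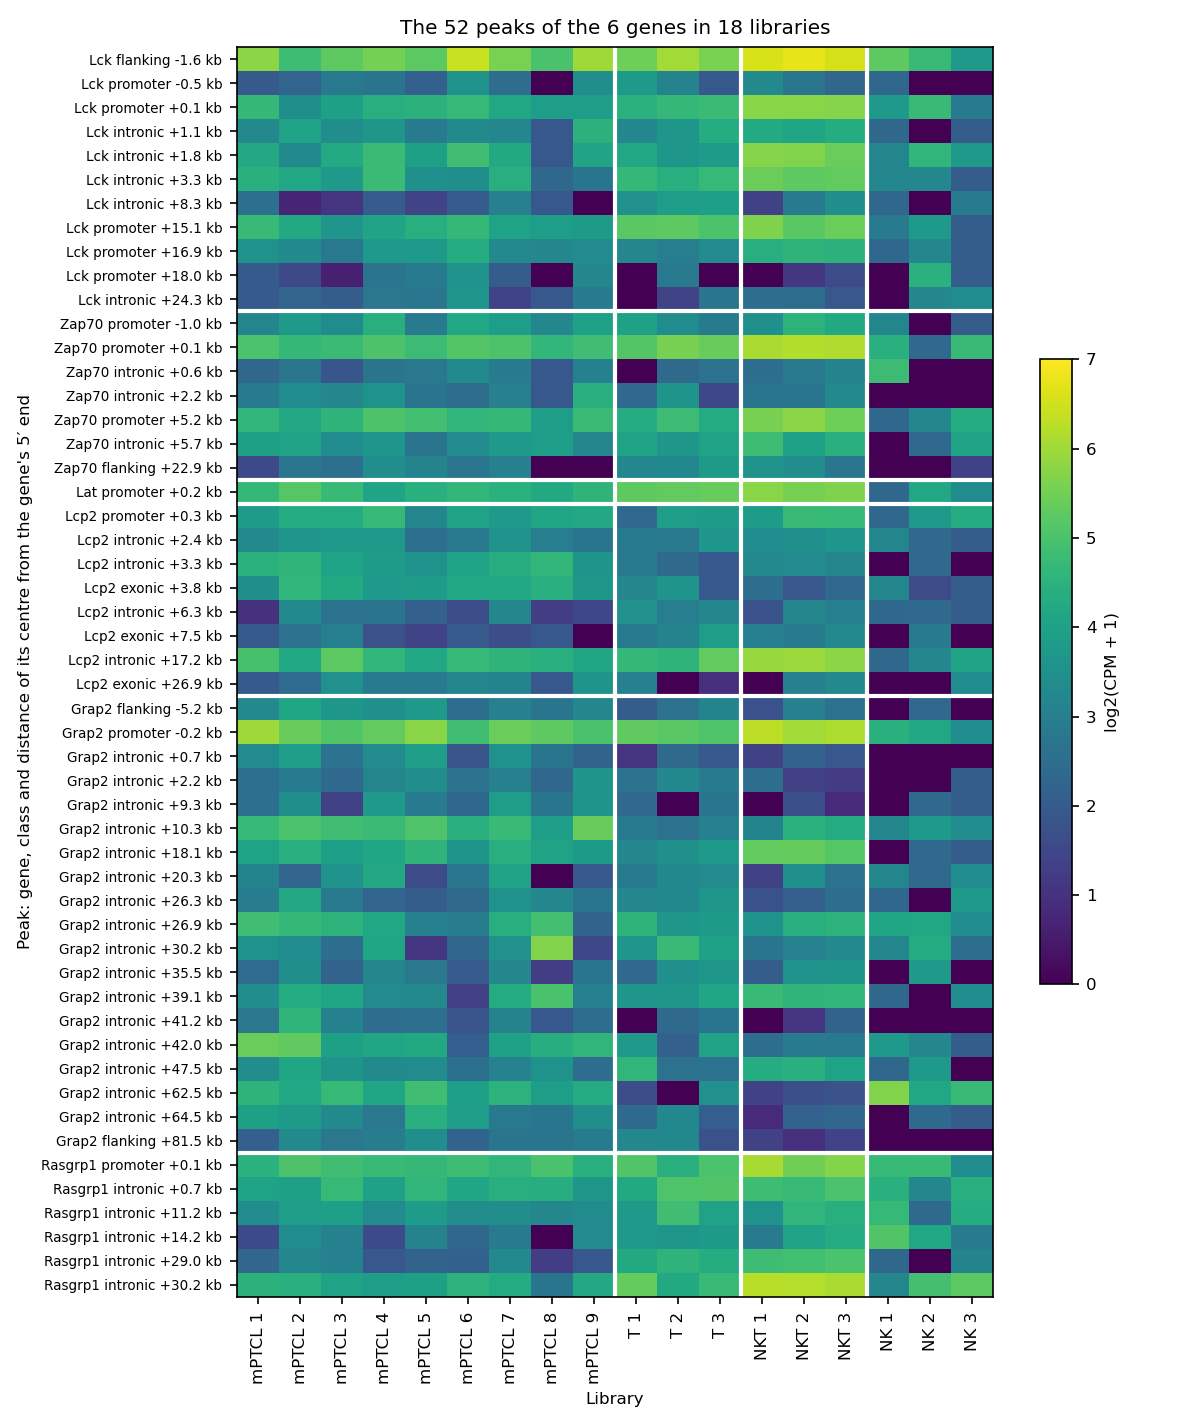
Accessibility of each of the 52 peaks (rows, by gene and by distance of the peak centre from the gene's 5′ end in kb) in each of the 18 libraries (columns), as log2(CPM + 1). The NKT columns are brightest at most promoter rows, while several Grap2 intronic rows are brighter in the lymphomas than in NKT cells.

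Lck encodes the Src-family kinase that starts the relay. Its upstream promoter peak, chr4:129573307-129573807, with its centre 84 bp inside the gene, held 10.2, 17.4 and 24.9 CPM at the lowest, median and highest of the 9 lymphomas. T cells held 21.3, 24.2 and 26.2 CPM in their 3 libraries, NKT cells 52.8, 52.6 and 51.5 CPM, and NK cells 12.4, 25.3 and 6.35 CPM. All 9 lymphomas therefore lay below all 3 NKT libraries, while they overlapped T and NK libraries. The difference from NKT cells was -1.51 ± 0.29 (adjusted p = 0.000181). It held in 20 of 21 alternatives, and ended under cyclic loess, which removes the trend with level, at -0.99 (adjusted p = 0.0590). Set against T cells it was -0.39 ± 0.33 (adjusted p = 0.401) and against NK cells 0.36 ± 0.41 (adjusted p = 0.641).

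The peak over the downstream Lck start, chr4:129558317-129558817, also carries the symbol of the microRNA gene Mir8119. The lymphomas held 11.7 CPM at the lowest, 15.97 at the median and 26.0 at the highest, and the T libraries 36.2, 37.2 and 31.3 CPM. NKT libraries held 49.6, 35.7 and 41.9 CPM and NK libraries 6.22, 12.6 and 3.17 CPM. Here the lymphomas lay below T cells as well as NKT cells, without overlap. Its fold change was -1.24 ± 0.29 against NKT cells (adjusted p = 0.00149) and -0.96 ± 0.31 against T cells (adjusted p = 0.0258). The call against NKT cells ended under cyclic loess and in the smaller table (adjusted p up to 0.188). The call against T cells held in only 8 of 21 alternatives and was lost under 6 other settings and without any 1 of the 3 T libraries, or without lymphoma 2, 7, 8 or 9, with adjusted p up to 0.326.

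An intronic Lck peak, chr4:129565061-129565561, 8330 bp into the gene, set T cells apart. It held 10.7, 13.8 and 14.5 CPM in the T libraries and 0, 2.79 and 7.22 CPM at the lowest, median and highest lymphoma. NKT libraries held 1.60, 6.36 and 9.73 CPM, and NK libraries 4.15, 0 and 6.35 CPM. No lymphoma reached the T libraries, and the difference was -2.15 ± 0.64 (adjusted p = 0.0158) on 84 counts over the lymphomas and 57 over the T libraries. It held in 16 of 20 alternatives and was lost in the smaller table and when any 1 T library was left out (adjusted p up to 0.0862).

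The 4 other Lck peaks that were lower than in NKT cells were a promoter peak 16903 bp into the gene at -0.97 ± 0.36 (adjusted p = 0.0314), intronic peaks at 1779 bp and 3275 bp at -1.46 ± 0.34 and -1.42 ± 0.35, and the flanking peak at -1617 bp at -1.03 ± 0.26, which also bears the symbol of the neighbour Fam167b. That flanking peak was the most accessible of the set, with 97.4 ± 7.48 CPM (SD, n = 3) in NKT cells and 47.3 ± 17.9 (SD, n = 9) in lymphomas. The remaining 4 Lck peaks averaged 1.09 to 18.1 CPM in NKT cells and did not pass the test against any normal group in the lymphomas. None of the 11 was called against NK cells.

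**Figure D2:**
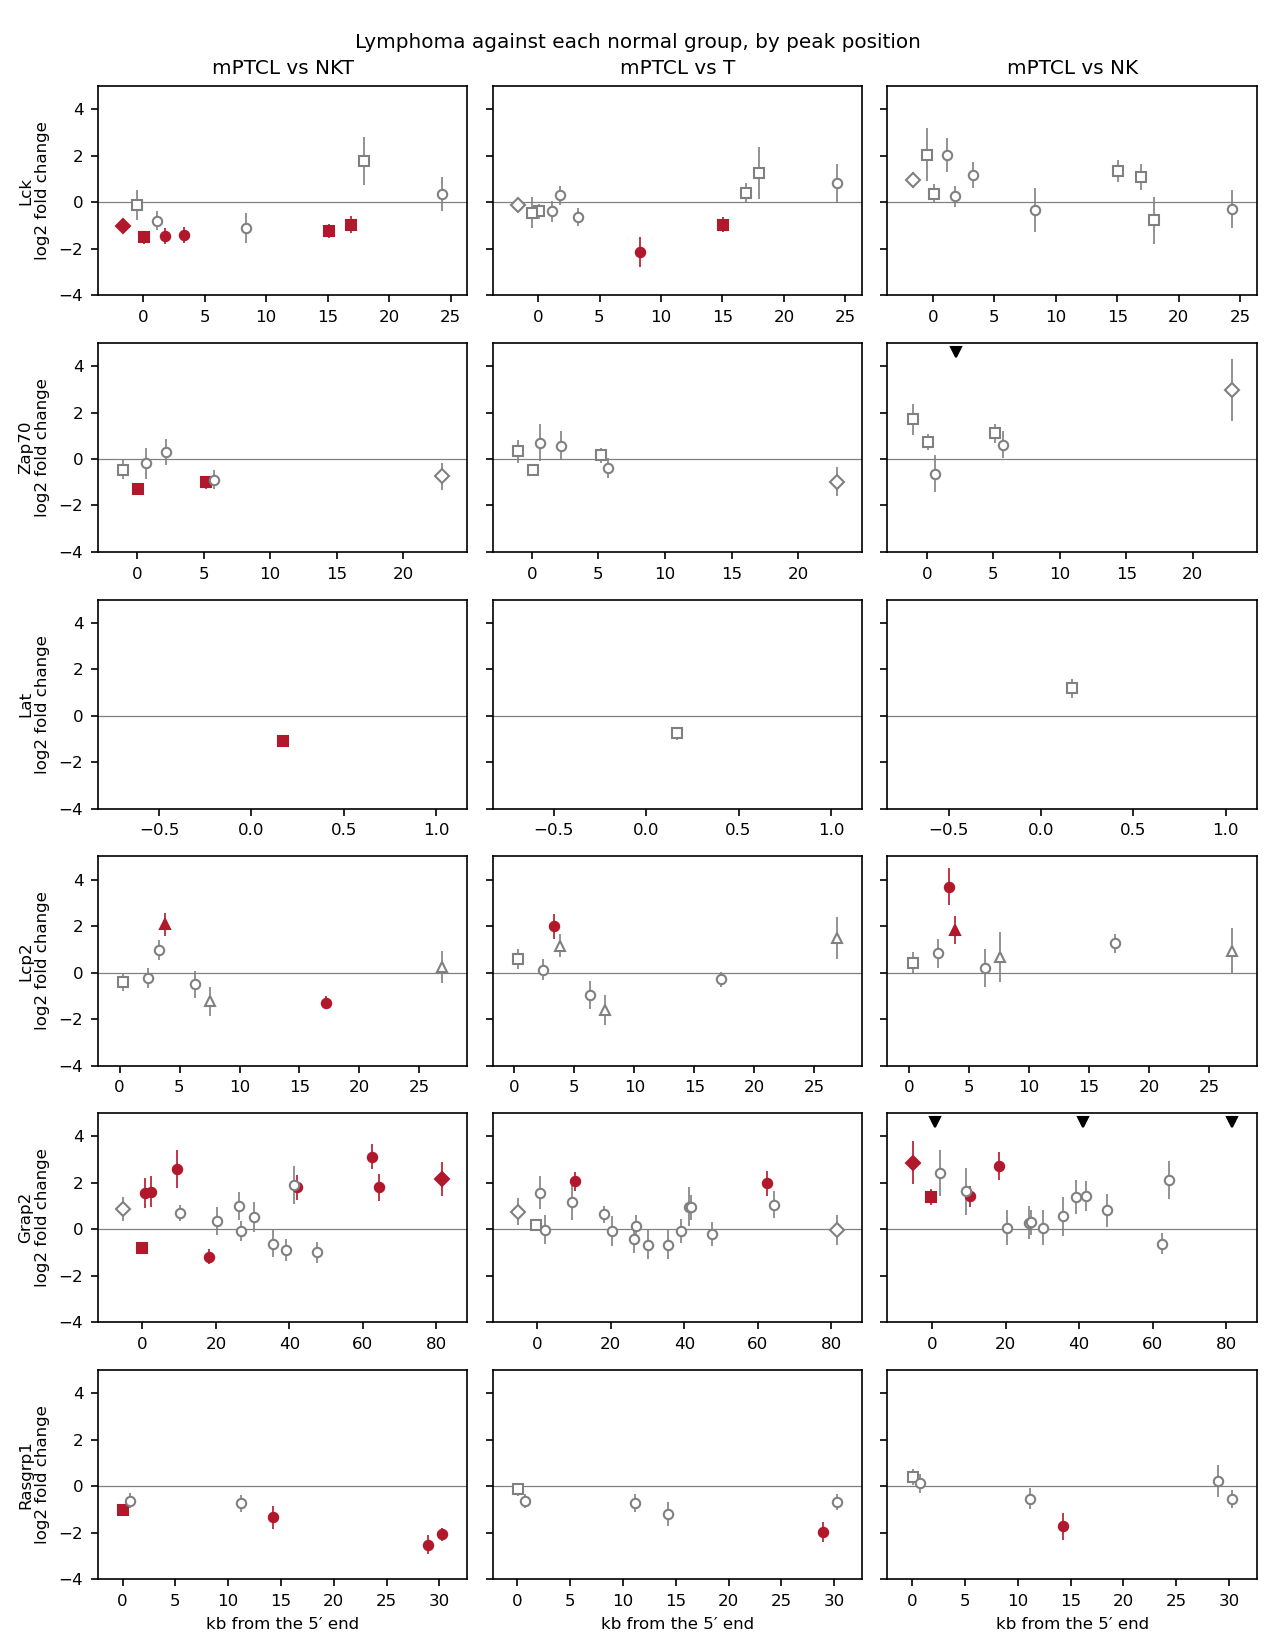
Log2 fold change (vertical axis, with SE bars) of each peak in the lymphomas against NKT, T and NK cells, by distance from the gene's 5′ end in kb. Filled red symbols passed the test and open grey ones did not; squares are promoter, circles intronic, triangles exonic and diamonds flanking peaks, and black triangles at the top edge stand for peaks with 0 counts in all NK libraries, for which no fold change is drawn. Lck and Rasgrp1 hold only lower calls against NKT cells, and Grap2 holds 7 higher and 2 lower ones.

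Zap70 encodes the kinase that binds the phosphorylated receptor chains. Its promoter peak, chr1:36761622-36762122, 74 bp inside the gene by its centre, held 23.7, 28.0 and 34.3 CPM at the lowest, median and highest lymphoma. T libraries held 34.1, 46.7 and 40.2 CPM, NKT libraries 68.7, 72.8 and 70.7 CPM, and NK libraries 20.7, 4.22 and 25.4 CPM. The lymphomas were clear of the NKT range and overlapped the T and NK ranges by 1 and 2 of the 9 libraries. Against NKT cells the fold change was -1.29 ± 0.25 (adjusted p = 0.000166), which held in 20 of 21 alternatives and ended under cyclic loess (-0.64, adjusted p = 0.223). Against T cells it was -0.48 ± 0.27 (adjusted p = 0.204).

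A promoter-class peak 5153 bp into Zap70, which carries the symbol Gm18828 too, was also lower than in NKT cells, at -0.9996 ± 0.28 (adjusted p = 0.00628). Scaling within chromosome 1 ended that call, at -0.60 ± 0.27 (adjusted p = 0.0706), and brought this peak and the promoter peak past the test against NK cells, at 1.42 ± 0.39 (adjusted p = 0.0218) and 1.07 ± 0.34 (adjusted p = 0.0460). Lymphomas spanned 13.9 to 31.9 CPM there, and NKT libraries 42.6 to 54.2 CPM. The other 5 Zap70 peaks did not pass against NKT cells, and none of the 7 passed against T cells. Against NK cells, 1 intronic peak passed, chr1:36763716-36764216. It held 2.79, 7.22 and 20.6 CPM at the lowest, median and highest lymphoma and 0 counts in all 3 NK libraries. At a floor of 3 counts over the NK group it was at least 4.01-fold higher in lymphomas (adjusted p = 0.0115), and it was higher than in NK cells in all 9 lymphomas. The T and NKT ranges of that peak, 1.87 to 11.2 and 5.60 to 8.91 CPM, overlapped the lymphomas.

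Lat, the membrane adaptor, had a single peak, over its promoter (chr7:126369286-126369786). Lymphomas held 15.97, 22.4 and 34.4 CPM at the lowest, median and highest. T libraries held 37.3, 38.9 and 40.7 CPM, NKT libraries 52.8, 46.3 and 49.2 CPM, and NK libraries 4.15, 16.9 and 9.52 CPM. Each lymphoma was thus below each T and each NKT library, and 8 of 9 were above all NK libraries. Only the difference from NKT cells passed the test, at -1.09 ± 0.27 (adjusted p = 0.00188), and it was lost under RLE scaling, cyclic loess and in the smaller table (adjusted p up to 0.363). The difference from T cells was -0.76 ± 0.28 (adjusted p = 0.0535) and that from NK cells 1.19 ± 0.40 (adjusted p = 0.0531), which passed when scaled within chromosome 7, at 1.32 ± 0.40 (adjusted p = 0.0380).

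Lcp2 encodes SLP-76, the cytosolic scaffold of the complex, and its 8 peaks differed among themselves. The promoter peak, chr11:34046991-34047491, did not pass in any comparison. It held 8.31, 16.7 and 24.9 CPM at the lowest, median and highest lymphoma, 4.26, 13.8 and 13.6 CPM in T, 13.6, 25.1 and 24.9 CPM in NKT, and 4.15, 12.6 and 19.0 CPM in NK libraries, so that all groups overlapped the lymphomas. The most accessible peak of the gene was intronic, 17197 bp from the 5′ end (chr11:34063875-34064375), and also bears the symbol 4930469K13Rik. It held 16.8, 22.6 and 36.6 CPM at the lowest, median and highest lymphoma, 24.5, 22.5 and 38.8 CPM in T, 60.0, 61.2 and 53.6 CPM in NKT and 4.15, 8.43 and 15.9 CPM in NK libraries. The lymphomas lay below NKT and above NK libraries with no overlap, and across the T range. The log2 fold change was -1.30 ± 0.28 against NKT cells (adjusted p = 0.000533), with cyclic loess ending the call (adjusted p = 0.146), and 1.26 ± 0.42 against NK cells (adjusted p = 0.0520).

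A pair of peaks 3315 bp and 3816 bp into Lcp2 showed the opposite order. The first, intronic (chr11:34049993-34050493, also 4930469K13Rik), held 11.2, 15.7 and 23.7 CPM at the lowest, median and highest lymphoma, 6.39, 4.33 and 2.80 CPM in T, 8.79, 9.39 and 8.08 CPM in NKT, and 0, 4.22 and 0 CPM in NK libraries. All 9 lymphomas exceeded every normal library. Only the differences from T and NK cells passed: 1.98 ± 0.52 against T cells (adjusted p = 0.00667) and a CPM ratio of 13.2 to NK cells (exact binomial 95% interval 3.62 to 109 on 2 NK counts, adjusted p = 0.00254). The call against T cells ended without T replicate 3 (adjusted p = 0.0723). The second, exonic (chr11:34050494-34050994), adjoins it. Lymphomas held 10.3 to 23.6 CPM there, T libraries 2.80 to 11.2, NKT libraries 2.73 to 4.80 and NK libraries 2.11 to 8.29. It was higher in lymphomas than in NKT cells by 2.07 ± 0.49 (adjusted p = 0.00128) and than in NK cells by 1.84 ± 0.61 (adjusted p = 0.0481), with all 9 lymphomas above both groups. It remained called against NKT cells under scaling within chromosome 11, at 1.75 ± 0.46 (adjusted p = 0.00416), and under cyclic loess. Against NK cells that scaling gave 1.41 ± 0.61 (adjusted p = 0.150), which ended the call.

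Grap2 encodes GADS, the adaptor that links SLP-76 to LAT, and of the 6 genes it held the most peaks. It held 7 of the 8 higher calls against NKT cells, 2 of 3 against T cells and 7 of 10 against NK cells. Against NKT cells 7 of 19 were higher and 2 lower. Its promoter peak, chr15:80572120-80572620, was 1 of the 2 lower ones: lymphomas held 27.7, 38.9 and 61.3 CPM at the lowest, median and highest, T libraries 38.4, 36.3 and 32.7 CPM, NKT libraries 77.5, 63.8 and 70.0 CPM and NK libraries 20.7, 16.9 and 9.52 CPM. The lymphomas fell between NKT and NK libraries with no overlap on either side, and across the T range. The fold change was -0.79 ± 0.24 against NKT cells (adjusted p = 0.00941), which held in 12 of 21 alternatives and ended without lymphoma 6 or 9 or NKT replicate 1 and under 6 other settings (adjusted p up to 0.787), and 1.40 ± 0.35 against NK cells (adjusted p = 0.00856). The latter ended under scaling within chromosome 15 and without NK replicate 3 (adjusted p up to 0.0872).

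The intronic Grap2 peak 62544 bp from the 5′ end (chr15:80634891-80635391) had the largest difference from NKT cells of the 52. It held 13.9, 18.7 and 27.8 CPM at the lowest, median and highest lymphoma, and 1.60, 2.27 and 2.47 CPM in NKT libraries. T libraries held 2.13, 0 and 10.7 CPM and NK libraries 49.8, 16.9 and 25.4 CPM. Lymphomas and NK cells thus shared the higher range, all 9 lymphomas being above every T and NKT library and 3 of them below every NK library. Its fold change was 3.13 ± 0.56 against NKT cells (adjusted p = 6.13e-05), called in all 21 alternatives and still 2.17 when scaled within chromosome 15 (adjusted p = 0.00229). Compared with T cells it was 1.98 ± 0.54 (adjusted p = 0.00825), and 1.24 within chromosome 15 (adjusted p = 0.0995). Against NK cells it was -0.61 ± 0.46 (adjusted p = 0.434), and NK cells themselves exceeded NKT cells by 3.75 ± 0.64 (adjusted p = 0.000252) and T cells by 2.60 ± 0.63 (adjusted p = 0.0144).

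The intronic peak 10326 bp into Grap2 (chr15:80582673-80583173) was the peak that set lymphomas above T cells most clearly. Lymphomas held 13.9, 26.5 and 40.2 CPM at the lowest, median and highest and T libraries 6.39, 5.19 and 7.48 CPM, whereas NKT libraries held 7.99, 21.1 and 18.9 CPM and NK libraries 8.29, 12.6 and 9.52 CPM. The lymphomas were above all T and NK libraries and overlapped NKT cells. The difference from T cells, 2.06 ± 0.42 (adjusted p = 0.000681), was called in all 20 alternatives. That from NK cells, 1.42 ± 0.45 (adjusted p = 0.0384), held in 14 of 20, and ended under scaling within chromosomes, without any 1 NK library and without lymphoma 5 or 7 (adjusted p up to 0.186).

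Another pattern was seen at the intronic peak 18110 bp into the gene (chr15:80590457-80590957). NKT libraries held 39.2, 39.5 and 34.9 CPM, lymphomas 11.3, 15.7 and 22.6 CPM at the lowest, median and highest, T libraries 8.52, 10.4 and 12.6 CPM and NK libraries 0, 4.22 and 3.17 CPM. The order NKT, lymphoma, NK had no overlap between its groups, and T cells overlapped the lymphomas. Lymphomas were lower than NKT cells by -1.18 ± 0.32 (adjusted p = 0.00413), which ended under RLE scaling, cyclic loess, a mean count of at least 20 and without NKT replicate 1 (adjusted p up to 0.230). They were higher than NK cells by 2.71 ± 0.61 (adjusted p = 0.00377), in all 20 alternatives.

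**Figure D3:**
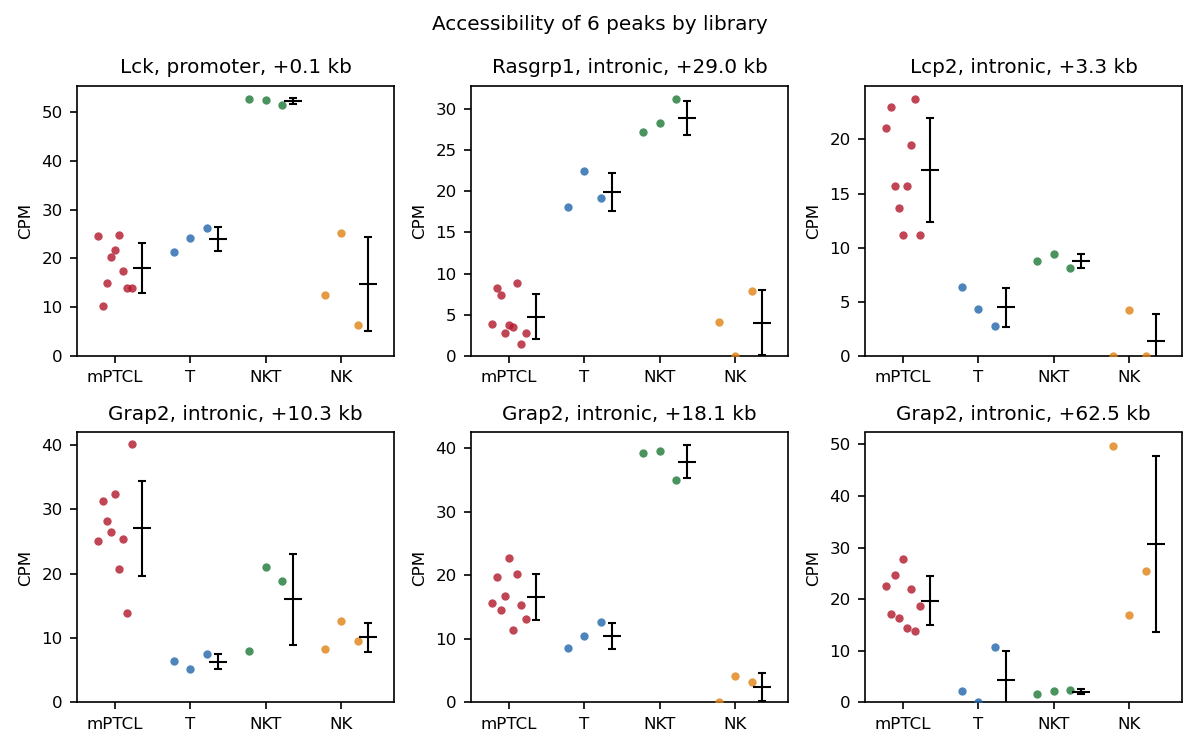
CPM of 6 peaks in each library (points), with the mean and SD of each group; panel titles give the gene, class and distance from the 5′ end. The Grap2 peak at +62.5 kb is high in lymphomas and NK cells and low in NKT cells, and the Rasgrp1 peak at +29.0 kb is low in all 9 lymphomas beside T and NKT cells.

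The remaining 15 Grap2 peaks ranged from 5.68 to 21.2 CPM on average in the lymphomas. Against NKT cells 6 of them were higher, from 1.56 to 2.60 on the log2 scale, and these had NKT means of 1.03 to 5.77 CPM. Under cyclic loess 1 of these 6 passed, the peak at 41955 bp. None of the 15 was called against T cells. Against NK cells 4 were higher, of which 3 had 0 counts in all NK libraries and were at least 3.19-fold to 4.47-fold higher in lymphomas, and the flanking peak with 2 NK counts, which carries the symbol Enthd1 too, had a ratio of 7.37 (95% interval 2.02 to 61.2). With scaling within chromosome 15, the 19 peaks gave 1 higher and 6 lower calls against NKT cells, the promoter peak then being at -1.73 (adjusted p = 1.92e-06). Against NK cells that scaling left 3 of the 7 higher calls of the gene, and ended those of the flanking peak at -5194 bp (adjusted p = 0.107) and the intronic peak at 41188 bp (adjusted p = 0.0775) besides the promoter peak and the peak at 10326 bp.

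Rasgrp1 encodes the exchange factor that activates Ras after diacylglycerol is made, and 4 of its 6 peaks were lower than in NKT cells. Its promoter peak, chr2:117342558-117343058, held 20.6, 25.3 and 31.9 CPM at the lowest, median and highest lymphoma, 33.0, 20.8 and 31.3 CPM in T, 66.3, 43.9 and 50.7 CPM in NKT and 24.9, 25.3 and 9.52 CPM in NK libraries. It was lower than in NKT cells without overlap, and mixed with T and NK cells. The fold change against NKT cells was -1.04 ± 0.26 (adjusted p = 0.00233), which held in 16 of 20 alternatives and ended under cyclic loess, RLE scaling, a mean count of at least 20 and without NKT replicate 1 (adjusted p up to 0.443). Set against T cells it was -0.14 ± 0.29 (adjusted p = 0.758).

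The difference was larger deep inside Rasgrp1. The intronic peak 28951 bp from the 5′ end (chr2:117313676-117314176) held 1.39, 3.73 and 8.89 CPM at the lowest, median and highest lymphoma. It held 18.1, 22.5 and 19.2 CPM in T, 27.2, 28.3 and 31.2 CPM in NKT, and 4.15, 0 and 7.93 CPM in NK libraries. All 9 lymphomas were below every T and NKT library and overlapped NK cells. The log2 fold change was -2.52 ± 0.41 against NKT cells (adjusted p = 1.93e-05) and -1.98 ± 0.44 against T cells (adjusted p = 0.00145), both called in all 21 alternatives, and 0.22 ± 0.69 against NK cells (adjusted p = 0.882). Cyclic loess left -2.84 and -2.23, and scaling within chromosome 2 did not end either call.

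Its neighbour 30239 bp from the 5′ end (chr2:117312388-117312888) held 5.58, 17.8 and 21.8 CPM at the lowest, median and highest lymphoma, and 75.1, 73.0 and 68.7 CPM in NKT libraries. T libraries held 39.4, 18.2 and 25.7 CPM and NK libraries 8.29, 29.5 and 36.5 CPM. NKT cells stood above all other groups, and lymphomas overlapped T and NK cells. The fold change was -2.08 ± 0.29 against NKT cells (adjusted p = 2.75e-06), called in all 21 alternatives, and -0.68 ± 0.33 against T cells (adjusted p = 0.133).

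The intronic Rasgrp1 peak at 14236 bp (chr2:117328391-117328891) was the only one of the 52 lower in lymphomas than in NK cells. NK libraries held 33.2, 16.9 and 6.35 CPM and lymphomas 0, 6.30 and 9.57 CPM at the lowest, median and highest. T libraries held 12.8, 12.1 and 13.1 CPM, and NKT libraries 6.39, 15.4 and 18.8 CPM. Lymphomas overlapped NK and NKT libraries but were below every T library. Its fold change was -1.73 ± 0.57 against NK cells (adjusted p = 0.0467), held in 13 of 21 alternatives, and -1.34 ± 0.49 against NKT cells (adjusted p = 0.0257), held in 9 of 21. Both are borderline: the adjusted p reached 0.42999 and 0.315, and the call against NK cells was lost without NK replicate 1 or 2 or lymphoma 1, 4, 6 or 8. The call against NKT cells was lost without NKT replicate 2 or 3 or lymphoma 6, 7 or 8. The 2 other intronic peaks, at 719 bp and 11170 bp, did not pass in any lymphoma comparison.

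**Figure D4:**
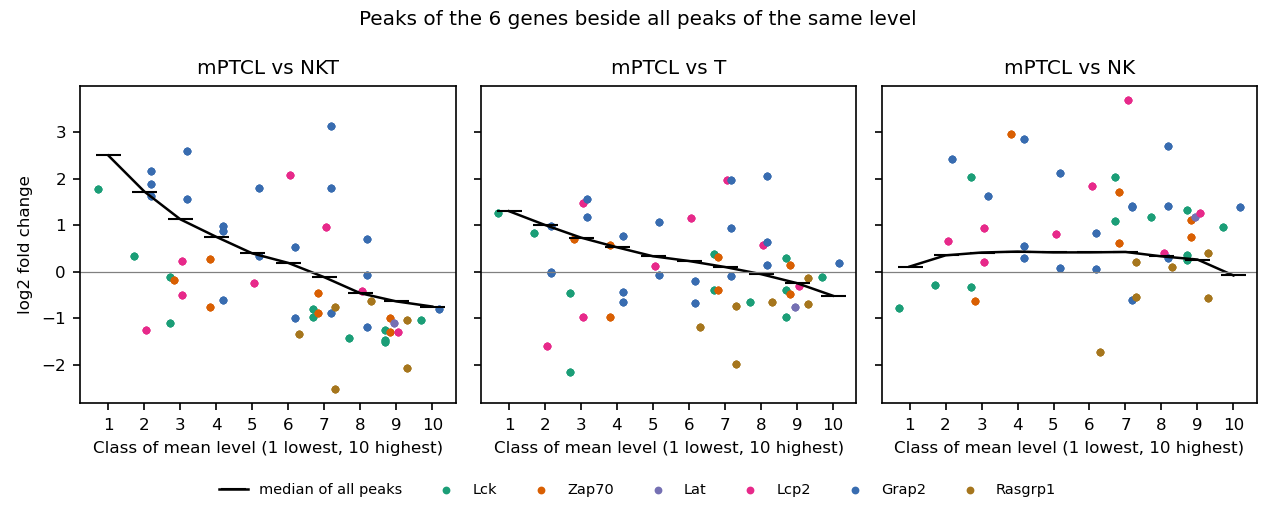
Log2 fold change of each of the 52 peaks (points, coloured by gene; peaks with 0 counts in a group are left out) by class of mean level, with the median of all peaks in each class as a black line, for lymphomas against NKT, T and NK cells. Against NKT cells the black line descends from 2.50 to -0.75, and all points of Lck, Zap70, Lat and Rasgrp1 lie below it.

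Counts were next summed over the peaks of each gene. Levels are the sum in CPM divided by the number of peaks, on the scaling of the peak fit, whereas gene fold changes come from a fit with its own scaling over 20326 genes. The single peak of Lat, for example, was at -1.09 in the peak fit and -0.78 in the gene fit on the same counts. Against NKT cells, 4 of the 6 genes were lower and 0 higher, beside 20.2% lower and 25.5% higher over all genes. Against T cells 1 was higher and 1 lower, beside 16.2% and 14.7%. Against NK cells 4 were higher and 0 lower, beside 11.2% and 10.3%. The 4 calls against NKT cells dropped to 2 without NKT replicate 1, and the 2 against T cells to 0 without T replicate 1 or 2 and to 1 without T replicate 3.

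Rasgrp1 showed the largest gene difference from NKT cells. Its level was 10.9, 13.9 and 16.5 CPM per peak at the lowest, median and highest lymphoma, 22.6 ± 0.356 (SD, n = 3) in T, 35.8 ± 0.909 (SD, n = 3) in NKT and 16.7 ± 2.65 (SD, n = 3) in NK cells. The gene fold change was -1.07 ± 0.16 against NKT cells (adjusted p = 1.51e-05), called in all 21 alternatives. Against T cells it was -0.49 ± 0.17 (adjusted p = 0.0273), which ended in the smaller table, under RLE scaling, cyclic loess, scaling within chromosomes and without any 1 T library (adjusted p up to 0.280). Against NK cells, next in the order of levels, it was -0.33 ± 0.19 (adjusted p = 0.207).

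Lck ran from 7.48 through 13.9 to 21.6 CPM per peak in the lymphomas. It was 17.7 ± 1.08 (SD, n = 3) in T, 30.6 ± 0.855 (SD, n = 3) in NKT and 8.65 ± 3.19 (SD, n = 3) in NK cells. The difference from NKT cells was -0.83 ± 0.21 (adjusted p = 0.00295), called in all 21 alternatives, with the highest adjusted p at 0.04997. Its neighbours in the order did not differ beyond the test: -0.12 ± 0.22 from T cells (adjusted p = 0.705) and 0.65 ± 0.25 from NK cells (adjusted p = 0.0681).

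Zap70 ran from 9.36 through 13.0 to 17.5 CPM per peak in the lymphomas, with 15.1 ± 1.71 (SD, n = 3) in T, 25.5 ± 0.942 (SD, n = 3) in NKT and 6.76 ± 3.79 (SD, n = 3) in NK cells. It was lower than in NKT cells by -0.59 ± 0.20 (adjusted p = 0.0204), in 13 of 21 alternatives, and higher than in NK cells by 0.94 ± 0.26 (adjusted p = 0.0119), in 20 of 21. The first call ended under RLE scaling, library totals, scaling within chromosomes, cyclic loess, the smaller table and without any 1 NKT library (adjusted p up to 0.357), and the second without NK replicate 2 (adjusted p = 0.120). Compared with T cells it was 0.08 ± 0.22 (adjusted p = 0.810).

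Lat differed in the gene fit from NKT cells by -0.78 ± 0.26 (adjusted p = 0.0153) and from NK cells by 1.14 ± 0.39 (adjusted p = 0.0351). The first ended under scaling within chromosomes, in the smaller table and without NKT replicate 1 (adjusted p up to 0.270), and the second in a fit of lymphomas and NK cells alone and without lymphoma 2 or NK replicate 1 or 3 (adjusted p up to 0.171). Set against T cells it was -0.53 ± 0.27 (adjusted p = 0.138).

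On the scaling of the peak fit, the mean level of lymphomas was above that of T cells in Lcp2 and Grap2 and below it in the other genes. The gene fit, with its own scaling, put Zap70 slightly above T cells too, at 0.08 ± 0.22. Lcp2 ran from 8.35 through 12.02 to 15.6 CPM per peak in the lymphomas, with 10.0 ± 1.40 (SD, n = 3) in T, 15.2 ± 1.65 (SD, n = 3) in NKT and 5.21 ± 1.56 (SD, n = 3) in NK cells. Its difference from NKT cells was -0.02 ± 0.19 (adjusted p = 0.928), from T cells 0.49 ± 0.21 (adjusted p = 0.0707) and from NK cells 1.14 ± 0.25 (adjusted p = 0.00161). Scaled within chromosome 11, these became -0.49 ± 0.16 (adjusted p = 0.0162), -0.03 ± 0.17 (adjusted p = 0.929) and 0.55 ± 0.22 (adjusted p = 0.0789).

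Grap2 had its highest mean in the lymphomas, with 7.63, 14.01 and 17.9 CPM per peak at the lowest, median and highest. T cells held 9.78 ± 0.523 (SD, n = 3), NKT cells 12.4 ± 1.09 (SD, n = 3) and NK cells 6.67 ± 0.931 (SD, n = 3). It was higher than in T cells by 0.69 ± 0.21 (adjusted p = 0.0135) and than in NK cells by 0.97 ± 0.22 (adjusted p = 0.00276), and its difference from NKT cells was 0.43 ± 0.20 (adjusted p = 0.0753). The call against T cells also ended without T replicate 1 or 2, and that against NK cells in the smaller table. Scaled within chromosome 15, the 3 values were -0.17 ± 0.17 against T (adjusted p = 0.457), 0.24 ± 0.18 against NK (adjusted p = 0.402) and -0.45 ± 0.16 against NKT cells (adjusted p = 0.0261), so neither higher call remained and the sign against T and NKT cells turned. The larger share of chromosome 15 in lymphoma counts moved with these values, and its part in them was not tested further.

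**Figure D5:**
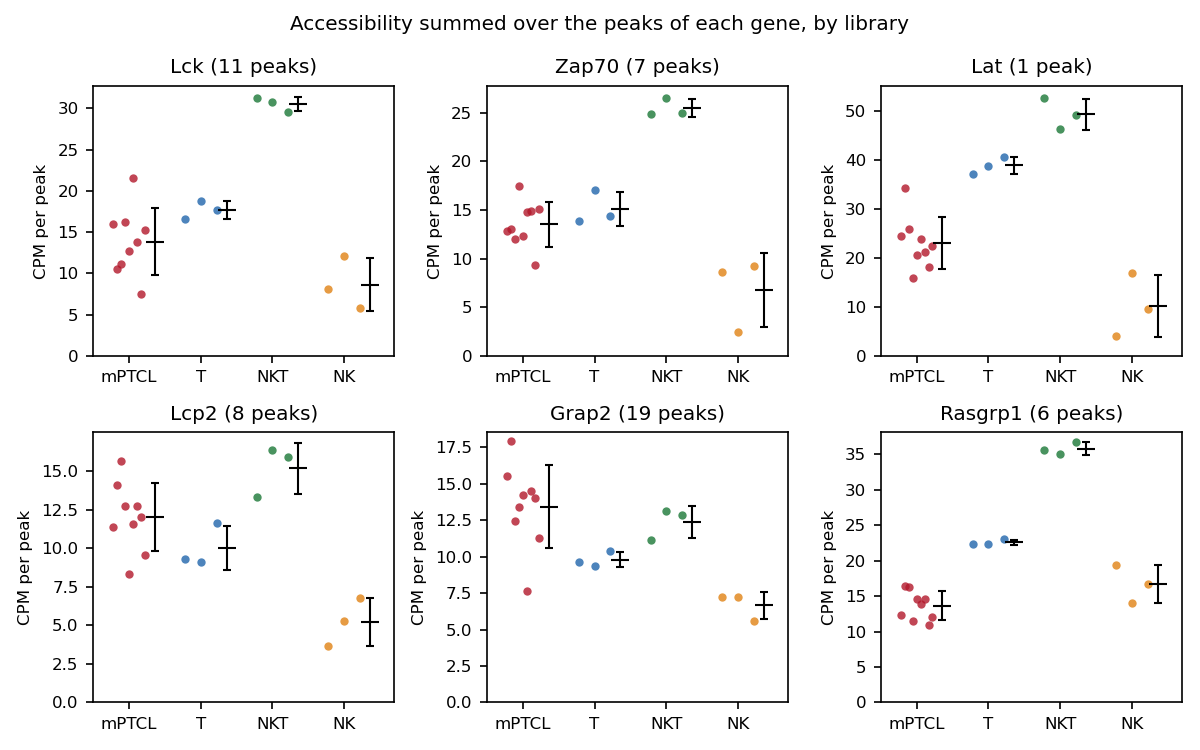
Accessibility of each gene in CPM per peak in each library (points), with the mean and SD of each group. The scaling is that of the peak fit, not of the gene fit. On it, NKT cells are highest for Lck, Zap70, Lat, Lcp2 and Rasgrp1, and the 9 lymphomas overlap T cells for Lck, Zap70, Lcp2 and Grap2 and lie below them for Lat and Rasgrp1.

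The normal groups differed among themselves in the same genes. NK cells were lower than NKT cells at 21 of 52 peaks and higher at 1, beside 10.3% lower and 6.81% higher over all peaks. The median of the 52 was -1.61, or -1.31 with groups of 0 counts held at their floor, and that of all peaks -0.17. At gene level 5 of 6 were lower and 0 higher, where 6.28% of all genes were lower and 8.51% higher: Lat at -1.92 ± 0.42, Zap70 at -1.53 ± 0.30, Lck at -1.47 ± 0.30, Lcp2 at -1.17 ± 0.28 and Rasgrp1 at -0.74 ± 0.22. Grap2 was at -0.54 ± 0.25 (adjusted p = 0.151). The Rasgrp1 call held in 7 of 17 alternatives (adjusted p up to 0.351) and was lost without any 1 NKT library and without NK replicate 2 or 3, and the other 4 held in all 17. The 22 peak calls dropped to 14 without NKT replicate 1 and to 13 without NK replicate 3. The 1 peak that NK cells held at a higher level was the Grap2 intronic peak at 62544 bp.

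NK cells were lower than T cells at 4 of 52 peaks and higher at 1, beside 2.77% and 2.02% over all peaks. These 5 calls dropped to 2 without T replicate 1 or 2 or NK replicate 1 or 3, and to 3 without NK replicate 2. The lower ones were the Lat promoter at -1.94 ± 0.44, the downstream Lck promoter at -2.29 ± 0.51, the Lcp2 intronic peak at 17197 bp at -1.55 ± 0.47 and a flanking Grap2 peak with 0 NK counts, which was at least 2.87-fold lower. Among genes, only Lat was lower, at -1.67 ± 0.43 (adjusted p = 0.0212), 0 were higher, and over all genes 2.19% were lower and 3.29% higher. The Lat call ended in a fit of the 2 groups alone, in the smaller table, without any 1 T library and without NK replicate 1 or 3 (adjusted p up to 0.0863).

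NKT cells were higher than T cells at 3 peaks and lower at 0, beside 3.48% and 1.75% over all peaks. These were the Lck intronic peak at 1779 bp at 1.76 ± 0.47, the Grap2 intronic peak at 18110 bp at 1.82 ± 0.44 and the Rasgrp1 intronic peak at 30239 bp at 1.39 ± 0.40. Leaving out any 1 library of these groups left 0 or 1 of those calls. By edgeR 0 of 6 genes passed, with 4 at an unadjusted p below 0.05 and 0 by DESeq2, all 6 fold changes being positive, and over all genes 2.32% were higher and 2.23% lower. The lymphoma comparisons and these share libraries, so their counts are not independent of each other.

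A ratio within a gene does not depend on the scaling of a library or on the copies of a whole chromosome. The counts of the promoter-class peaks were therefore set over those of the other peaks of the same gene in each library, for the 5 genes with both kinds, and compared by two-sided exact permutation tests over libraries (220 arrangements, 15 comparisons). In Grap2 this log2 ratio was lower in lymphomas than in NKT cells by -1.19 (exact permutation p = 0.00455, Benjamini-Hochberg adjusted p = 0.0455), with -2.89 to -1.93 in the 9 lymphomas, all below the -1.54 to -0.78 of the NKT libraries. In Zap70 it was lower by -0.55 (exact permutation p = 0.00909, adjusted p = 0.0455), with 8 of 9 lymphomas below all NKT libraries. In Rasgrp1 it was higher than in T cells by 0.84 (exact permutation p = 0.00909, adjusted p = 0.0455), with -1.46 to -0.18 in lymphomas, all above the -2.42 to -1.60 of the T libraries. Such a ratio can still follow the trend of fold change with level where promoter and other peaks differ in level. The Grap2 promoter peak, at -0.79 against NKT cells, was in level class 10, where the median of all peaks was -0.75. The median class of the 19 Grap2 peaks was 5, where that of all peaks was 0.40. The part of this trend in the ratios was not tested.

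The other 12 comparisons of that ratio did not pass, with adjusted p from 0.0955 to 0.964. All 3 that passed ended with an offset of 2 counts in place of 0.5 and in the smaller table. The smallest p that 220 arrangements can give is 0.00455. Leaving out a library leaves fewer arrangements and a larger smallest p, so a call can be lost for that reason alone. The calls held in 5 of 15 alternatives in Grap2, 2 in Zap70 and 4 in Rasgrp1. Each was lost without any 1 library of its normal group. The Grap2 call was also lost without lymphoma 1, 2, 3, 4 or 9, and the Rasgrp1 call without lymphoma 1, 2, 3, 4, 6 or 9. The Zap70 call was lost without lymphoma 1, 2, 3, 4, 5, 7, 8 or 9. Over the 15 alternatives the difference ran from -1.36 to -0.98 in Grap2, -0.77 to -0.30 in Zap70 and 0.50 to 1.005 in Rasgrp1.

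The rest of the pathway was read from lists of gene sums. Their values come from the fit over the whole table and are not given within chromosomes. The part of the chromosome shares in them was not tested. Of 27 other genes of the proximal relay, 2 lay higher and 12 lower in lymphomas compared with NKT cells, 3 and 6 compared with T cells, and 5 and 3 compared with NK cells. Over all genes 25.5% were higher and 20.2% lower against NKT cells, 16.2% and 14.7% against T cells, and 11.2% and 10.3% against NK cells, and the counts of the lists that follow stand beside the same shares. The median fold changes were -0.44, -0.01 and 0.29, beside 0.06, 0.12 and 0.13 over all genes. The coreceptor genes showed large differences from NKT cells: Cd4 was lower by -5.17 ± 0.35 (adjusted p = 2.70e-10), Cd8a higher by 2.97 ± 0.56 (adjusted p = 0.000174) and Cd8b1 higher by 2.83 ± 0.77 (adjusted p = 0.00421). Cd4 was lower than in T cells too, by -2.08 ± 0.41. Cd4 was itself higher in NKT than in T cells, by 3.09 ± 0.47. Cd8a and Cd8b1 were themselves lower in NKT than in T cells, by -2.98 ± 0.62 and -3.66 ± 0.87. Neither was among the 3 genes of the list called higher in lymphomas than in T cells.

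Other genes of that list were also lower than in NKT cells. Plcg1, the phospholipase that acts at the LAT complex, was at -1.09 ± 0.24. Prkcq, the protein kinase C that diacylglycerol activates, was at -1.04 ± 0.17, and Themis, an adaptor bound to Grb2, at -1.91 ± 0.42. Cd247, the gene of the zeta chain, was lower than in T cells at -1.08 ± 0.19 and than in NK cells at -1.36 ± 0.20. Cd3e, a receptor chain, was higher than in NK cells at 2.55 ± 0.51. Txk and Sh2d2a, a kinase of the Tec family and an adaptor, were higher than in T cells at 0.99 ± 0.24 and 0.98 ± 0.23, and than in NK cells at 0.88 ± 0.25 and 1.13 ± 0.25.

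Of 19 genes that restrain the relay, 7 were lower and 0 higher compared with NKT cells, 4 and 1 compared with T cells, and 4 and 1 compared with NK cells. The 4 of 19 lower than in T cells stand beside 14.7% of all genes. Rasa1, a GTPase-activating protein of Ras, was lower than in all 3, at -1.28 ± 0.22, -1.39 ± 0.23 and -1.39 ± 0.24 in that order. Cblb, a ubiquitin ligase, likewise was at -1.24 ± 0.23, -1.18 ± 0.23 and -1.33 ± 0.24. Cd5, a surface inhibitor, was lower than in T cells at -1.94 ± 0.42, and Sla, an adaptor that lowers receptor levels, was higher than in T cells at 1.29 ± 0.24.

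Relatives of the 6 genes that serve other lymphoid and myeloid cells were listed too, and 12 of 14 had a peak. The lymphomas exceeded NKT cells at 4 and fell short at 0, with 6 and 2 against T cells and 3 and 3 against NK cells. The 4 of 12 higher than in NKT cells stand beside 25.5% of all genes. Lat2, the relative of LAT, was higher than in NKT cells at 2.81 ± 0.39 and than in T cells at 2.01 ± 0.39. Syk, the relative of Zap70, was higher than in NKT cells at 1.67 ± 0.46 and lower than in NK cells at -1.90 ± 0.40. Lyn, a Src-family kinase like Lck, followed at 1.55 ± 0.31 and -1.45 ± 0.28, and Rasgrp2 was lower than in T cells at -0.84 ± 0.19.

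Markers of the sorted and of other cells were measured beside these genes. Over 21 peaks of 6 T-cell markers (Cd3e, Cd3d, Cd3g, Cd5, Cd6 and Thy1) the lymphomas held 6.61 to 12.2 CPM per peak, T libraries 15.6 to 22.7, NKT libraries 21.9 to 24.6 and NK libraries 4.02 to 6.91, with no overlap of the lymphomas with T or NKT cells. Of the 6 genes 4 were lower than in NKT cells and 2 lower than in T cells. The 14 peaks of 4 NK-cell markers, of 5 listed, held 8.70 to 14.9 CPM per peak in lymphomas. T cells held 4.11 to 7.97, NKT cells 3.43 to 4.34 and NK cells 9.52 to 10.4. Of these 4 genes, 4 were higher than in NKT cells and 3 higher than in T cells, and 0 were called against NK cells. Over all genes 25.5% were higher than in NKT cells and 16.2% higher than in T cells. On the scaling of the peak fit, summed levels of Lat and Rasgrp1 lay below T and NKT cells in all 9 lymphomas. The T-cell markers did so too, whereas the sums of Lck and Zap70 overlapped T cells. In the gene fit, with its own scaling, Lat did not pass against T cells (edgeR adjusted p = 0.138). The part of the marker level in the differences of these genes was not tested.

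Markers of other cells were measured in the same way. Myeloid markers (5 of 8, with no peak for Adgre1, Csf1r or Lyz2) held 9.76 to 15.4 CPM per peak in lymphomas against 6.47 to 8.29 in NKT cells. Hepatocyte markers (2 of 6, with no peak for Alb, Apoa1, Serpina1a or Ttr) held 6.35 to 16.6 against 0.959 to 3.63, and endothelial and stromal markers (4 of 6) 7.53 to 14.8 against 7.24 to 8.95. Against NKT cells 3 of 5 myeloid, 2 of 2 hepatocyte and 2 of 4 endothelial and stromal genes were higher and 0 lower, where 25.5% of all genes were higher. That share was over genes of all levels, whereas higher calls of peaks against NKT cells were more frequent at low levels. NK libraries held 11.3 to 16.6 CPM per peak of the myeloid list and 6.98 to 15.4 of the endothelial and stromal list, and T libraries 10.1 to 13.5 of the latter, ranges that overlap the lymphomas. For the myeloid list T libraries, at 7.46 to 8.97, lay below all lymphomas. Against T cells 2 of 5 myeloid, 1 of 2 hepatocyte and 2 of 4 endothelial and stromal genes were higher and 0 lower. Over all genes 16.2% were higher than in T cells. For the hepatocyte list NK libraries, at 3.79 to 10.8, overlapped the lymphomas and T libraries, at 2.77 to 5.14, did not. The part of such cells in the results was not tested.

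Over the 18 libraries, the sums of the 6 genes were most alike for Lck and Lat (Pearson r = 0.768) and for Lat and Lcp2 (r = 0.762), and least for Grap2 and Rasgrp1 (r = -0.0666). Such values describe libraries that share their groups and scaling. Among the 14028 to 14030 other genes compared, those of a mean count of at least 50, Lck was most like Trbj2-3 and Trbc1 of the T-cell receptor beta locus (r = 0.935 each). Zap70 was most like Gm48720 and Cd3e (r = 0.947 each), and Lat was most like Sf3a1 (r = 0.908). Both symbols of each pair, for Lck and for Zap70, had an identical r, so they may stand for the same peaks. The closest gene to Rasgrp1 was Tgoln1 (r = 0.944). The 3 closest to Lcp2 (Fads6, A830035A12Rik and Gaa, r from 0.913 to 0.934) were all on chromosome 11, and the 3 closest to Grap2 (Celsr1, Poldip3 and Myh9, r from 0.902 to 0.918) were all on chromosome 15, the chromosomes whose share of counts was larger in the lymphomas.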

How the data were processed

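ATAC-seq read counts per 500 bp peak in 18 libraries, and their log2 CPM values, were used as deposited by the authors; the counts were whole numbers. The submitters' processing notes name MACS2 2.1.2, bedtools, edgeR 3.24.3 and mm10 without their roles. How peaks were chosen, which aligner, duplicate filter and Tn5 shift were used, and whether coordinates count from 0 or 1 is not given in the sources used here. The deposited log2 CPM equalled TMM log2 CPM with a prior count of 2 within 0.00637.

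Counts were tested with edgeR 4.0.16 (quasi-likelihood, TMM, all 18 libraries, R 4.3.3) over 61220 peaks, and after summing over the peaks of a symbol over 20326 genes, with Benjamini-Hochberg adjustment. The test was checked on simulated counts with a single spread for all peaks. They held no trend of fold change with level and no chromosome differences, so that check does not bear on those. A group without counts was set to 3 counts in all for a bound; such intervals and floors cover counting error only. Promoter ratios used an offset of 0.5 counts and scipy 1.17.1. Alternatives used limma 3.58.1 (cyclic loess), DESeq2 1.42.0, other scalings and filters, the smaller deposited table and leaving out each library. Library values are given for the most accessible promoter-class peak of each gene and its peak of smallest adjusted p in each lymphoma comparison; list genes named are among the largest called changes. The genes and lists were chosen with earlier results of these data known. Lymphomas are numbered 1 to 9 in accession order. One list of markers of other cells is not reported here.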

Additional observations from a re-analysis of the deposited data

Results flagged for a closer look

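Among 63 sets of values over the 9 lymphomas, 5 held a library whose log2 CPM lay apart from the other 8 by more than Dixon's critical value, where chance gives about 1 in 20. In the Grap2 intronic peak at 80613535, lymphoma 2 was highest at 4.57, and the next was 3.10. In the Grap2 intronic peak at 80614302, lymphoma 6 was lowest at 2.02, and the next was 3.97. Lymphoma 8, the shallowest of the 9 with 670358 counts, was lowest at the Lck promoter-class peak at 129573869, at -0.36 with the next at 1.90, and at the Rasgrp1 intronic peak at 117312388, at 2.67 with the next at 3.89. Lymphoma 9 was lowest at the Lcp2 exonic peak at 34054217, at -0.36 with the next at 1.32. The values of -0.36 are libraries with 0 counts in the peak.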

How the results depend on the processing

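The 24 peak calls between lymphomas and NKT cells became 15 with a mean count of at least 20, 9 under cyclic loess and 7 in the smaller table, and 18 to 25 when 1 library was left out. The 6 against T cells became 3 in the smaller table and 3 to 8 by leaving out. The 11 against NK cells became 6 with a mean count of at least 20, 19 under cyclic loess and 7 to 16 by leaving out. For NKT against T cells 3 calls became 5 within chromosomes, 5 by DESeq2, 1 with a mean count of at least 20, 0 under cyclic loess, 14 in a fit of the 2 groups, 1 in the smaller table and 0 to 1 by leaving out. For NK against T cells 5 became 3 by RLE, library totals, DESeq2 or a mean count of at least 20, 9 within chromosomes, 10 under cyclic loess, 2 in a fit of the 2 groups and 2 to 4 by leaving out. For NK against NKT cells 22 became 14 by RLE, library totals or DESeq2, 12 with a mean count of at least 20, 11 in a fit of the 2 groups, 10 in the smaller table and 13 to 22 by leaving out.

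The 4 gene calls against NKT cells became 2 in the smaller table and 2 to 5 by leaving out; the 2 against T cells 0 within chromosomes, 1 in the smaller table and 0 to 3; the 4 against NK cells 2 within chromosomes and 3 to 5. For NKT against T cells, 0 became 4 in a fit of the 2 groups and 0 to 0 by leaving out. For NK against T cells 1 became 0 in a fit of the 2 groups or the smaller table and 0 to 1 by leaving out, and for NK against NKT cells 5 became 4 to 5. The 2 promoter ratios against NKT cells and the 1 against T cells became 0 with an offset of 2 and in the smaller table, and 0 to 2 and 0 to 1 by leaving out, where fewer arrangements raise the smallest possible p. For the other counts the cause was not tested.

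Normal libraries share replicate numbers across groups, but same-numbered libraries did not deviate together (correlations from -0.0516 to 0.0537 over 9 pairs, against -0.0669 to 0.0912 over 18 pairs of different numbers). The replicate block, fitted on the 9 normal libraries, gave 3 peaks for NKT against T, 3 for NK against T and 13 for NK against NKT cells, and 1 and 2 genes in the first and second. The same 9 libraries with no replicate block, an alternative chosen after seeing the data, gave 7 peaks for NKT against T cells, and 2 and 2 genes.

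These values changed sign. Within chromosomes, the Grap2 peaks at 80582673 against NKT, 80590457 against T and 80572120 against T cells were at -0.29, -0.0897 and -0.53, the Grap2 sum at -0.45 against NKT and -0.17 against T cells, the Lcp2 sum at -0.0265 against T cells and the Lcp2 promoter peak at 34046991 at -0.0749 against NK cells. In the smaller table, against T cells, the Lck peak at 129573307 was at 0.13, the Lck sum at 0.0191, the Zap70 peak at 36761622 at 0.0440 and the Lcp2 peak at 34063875 at 0.22, and for NK against T cells the Grap2 sum was at 0.14 and the Rasgrp1 sum at 0.11. Under cyclic loess the Zap70 peak at 36763716 was at -0.82 against NKT cells. The Lcp2 promoter peak at 34046991 against NKT cells was at 0.0626 by RLE, 0.0301 with a mean count of at least 20, 0.0515 by DESeq2, 0.0323 by cyclic loess and 0.23 in the smaller table, and the Lcp2 sum at 0.11, 0.0589, 0.10 and 0.22 by the first 4 and 0.0839 by library totals, with -0.11 to 0.0187 by leaving out. The Rasgrp1 promoter peak at 117342558 against T cells was at 0.11 by RLE and DESeq2, 0.0464 by library totals, 0.16 within chromosomes, 0.18 by cyclic loess and 0.0164 with a mean count of at least 20, with -0.21 to 0.0915 by leaving out. Leaving out gave -0.86 to 0.52 for the Lck peak at 129565061 and -0.30 to 1.30 for the Rasgrp1 peak at 117313676 against NK cells.

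Among promoter ratios, with the strongest promoter peak only, Lck was at -0.37 against NKT and -0.28 against NK cells and Zap70 at -0.30 against T and -0.0903 against NK cells. In the smaller table Lck was at -0.16 and Lcp2 at 0.82 against NKT cells and Zap70 at -0.72 against NK cells. By leaving out, Lck ran from -0.0411 to 0.0714 against NKT and -0.20 to 0.59 against NK cells, Lcp2 from -0.24 to 0.11 against NKT cells, and Zap70 from -0.0909 to 0.0856 against T and -0.28 to 0.28 against NK cells. The promoter to other ratio of Lcp2, mPTCL vs T, ran from -0.000666 to 0.92. Depth limits the NK comparisons, where totals were at most 596601 counts.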
